A study of Sus scrofa with 20 samples.

Results

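The interleukins and interleukin receptors of pig epicardial fat were examined as every gene row whose name begins with IL and a digit. The rule drew on a table of exon read counts with 22861 rows and added names of the same form found only in a second table of 10157 rows. It gave 96 members, of which 71 came from the first table and 25 from the second alone, and 63 of the 71 names stood in both tables. The second table holds gene read counts on another gene set, and its values are named as such throughout.

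Interleukins are secreted proteins through which immune cells and tissue cells signal to each other. Most bind a receptor made of a chain specific to the ligand and a chain shared by several cytokines, such as the common gamma chain IL2RG, the IL-6 family signal transducer IL6ST (gp130) or the IL-17 receptor chain IL17RA. Many of these receptors signal through JAK kinases and STAT factors, whereas the IL-1 and IL-17 families act through adaptor proteins on NF-kappaB. Epicardial fat lies directly on the heart muscle and is known as a source of cytokines such as IL-6 and IL-1 beta.

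RNA was sequenced from this fat in Ossabaw pigs, small swine that readily become obese. The HHD group (n = 6) ate a Heart Healthy diet, in which fat was unsaturated and grain unrefined, with fruit and vegetables and without a drug. The HHD+S group (n = 6) ate the same diet with atorvastatin, an inhibitor of cholesterol synthesis, and the WD+S group (n = 8) received atorvastatin with a diet high in saturated fat, cholesterol and refined grain. The label of that last group reads atherogenic and was taken as the Western diet of the design, which named 32 pigs in 4 groups, 16 boars and 16 gilts. Western diet without the drug was not analysed here, so the effect of the drug was measured on 1 diet and the effect of diet under the drug only. The titles of the libraries carry different animal numbers, but no label states that each came from its own animal, so p-values measure the spread between these libraries. The tissue was ground whole, and fewer cells of a type cannot be told apart from less RNA per cell. The exon read totals of the libraries ran from 2749337 to 6543337, of which the 71 members took 0.0841% to 0.129%. Libraries stood apart in 2 ways that touch the results. HHD+S replicates 5 and 6 and WD+S replicate 8 were far above the rest in interferon-induced genes, and HHD replicates 3 and 5 had reads of Y-linked genes between the levels of the other libraries, at 176.96 and 42.31 CPM. Results that rest on the first of these are given with and without HHD+S replicates 5 and 6.

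Of the 96 members, 48 (50%) were expressed by the criterion used, a level of at least 1 CPM (the count scaled to a common library total) in at least 6 libraries. The same criterion was met by 56.1% of all rows of the first table and 70.6% of the second. In the table each was taken from, 16 members had no read in any library and 17 had between 1 and 10 reads over all 20 libraries. Of the 16, the second table gave IL1R2, the decoy receptor of IL-1, 34 reads, IL17REL 3 and IL26 1. Of 41 receptor names 27 met the criterion, against 17 of 43 ligands and 3 of 6 antagonists or decoys. By family the share was 8 of 12 for IL-17, 11 of 22 for IL-1, 11 of 19 for the common gamma chain and type 2 cytokines, 7 of 15 for IL-6 and IL-12, 5 of 14 for IL-10 and 1 of 4 for the common beta chain. In the small group of other names (IL8, IL16, IL32, IL34 and the enzyme IL4I1), all 5 were expressed. Each member was scored only in the table it was taken from. IL6R and IL18R1 thus fell short on 35 and 39 first-table reads, although the second table gave them 6004 and 440. IL2RA entered these counts as IL2RA_1, IL2RA_2 and IL2RA, and only the last, from the second table, met the criterion.

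IL3, IL9 and IL17A, all known as products of T cells, fell short of the criterion with no read in any library of either table. A count of 0 over all 20 libraries allows a level of up to 0.0367 CPM in the first table, counting error only. IL2, the growth factor of T cells, had 2 reads in all, IL4 had 2, IL21 had 3 and IL22 had 1. The chains of IL-12, IL12A and IL12B, had 4 and 2 reads. IL19, IL24 and the interferon lambda genes IL28A and IL28B (so named in humans) were at 0, as were IL36B, IL36RN, IL37, IL1F10 and IL1B2 in the second table. Expression of the genes at 0 was not detectable at this depth, and the others named here were below the criterion.

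Levels of different genes were compared only by the RPKM values that the authors deposited in the second table. The length behind those values is not stated. IL6ST had 1435 exon reads but none in the second table, and IL8 has no row of that name there, so neither could be ranked. The highest median over 20 libraries was that of IL13RA1, a receptor chain for IL-13 and IL-4, at 96.8 RPKM with a range of 74.0 to 130.1. IL34, a ligand of the macrophage receptor CSF1R, followed at 68.3 RPKM and IL3RA, the alpha chain of the IL-3 receptor, at 51.3. IL11RA, the receptor chain for IL-11, stood at 41.8 RPKM and IL33, an alarmin of the IL-1 family held in the nuclei of stromal cells, at 37.4. The range of IL33 (16.3 to 49.7) overlapped those of both IL11RA (31.3 to 64.9) and IL1R1 (26.4 to 56.2). Their order within each library was not compared. IL1R1, the signalling receptor of IL-1, had a median of 35.9 RPKM, IL17RA 26.0, the IL-18 inhibitor IL18BP 21.1, IL4R 20.3, IL17RC 19.0 and the IL-10 receptor chain IL10RA 18.02. IL18R1 was listed at 37.2 RPKM, but this value was high for its read count. Its RPKM was 7.37 times its CPM, against 0.270 to 0.702 for the other 11 of the top 12, and its count over all libraries was 440.

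**Figure D1:**
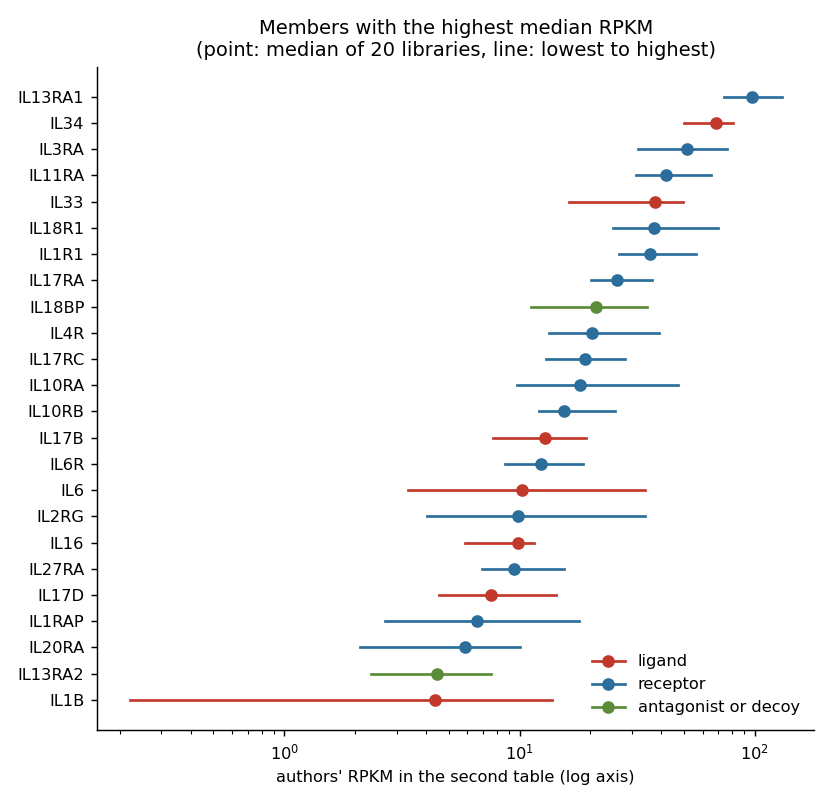
The 24 members with the highest median RPKM in the second table, on a log axis, with points for the median of 20 libraries and lines from the lowest to the highest library. Receptors fill most of the upper ranks, with IL34 and IL33 the only ligands among the top 12.

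Among the ligands, IL33 had levels in the first table of 77.4 to 116 CPM (median 99.5) in HHD, 58.4 to 123 (median 103) in HHD+S and 39.3 to 101 (median 86.1) in WD+S. The groups overlapped, and the lowest value lay in WD+S replicate 8. IL34 had group means of 18.7 ± 4.68 CPM (SD, n = 6) in HHD, 19.96 ± 4.86 (n = 6) in HHD+S and 19.6 ± 2.15 (n = 8) in WD+S. IL16, a chemoattractant for CD4 cells found in the second table, had means of 56.6 ± 4.89, 50.8 ± 11.8 and 49.5 ± 8.34 CPM in the same order. The coefficient of variation over 20 libraries was 22.7% for IL33, 19.2% for IL34 and 17.0% for IL16, against 58.3% for IL1B, 54.3% for IL10 and 66.0% for IL18, which had fewer reads.

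IL6 ranged from 3.94 to 42.1 CPM in the second table, with a coefficient of variation of 67.5% over 20 libraries. Its highest value was in HHD replicate 3, and replicate 1 of HHD and replicate 2 of HHD+S both reached 32.3 CPM. A first-table row spelled IL-6_1, which a reference list of gene names calls IL6, had 255 reads against 1255 in the second. That row ran from 0.401 to 9.35 CPM, also highest in HHD replicate 3, so the level of IL6 depended on the table. IL1B, the main secreted form of IL-1, ran from 0.326 CPM in WD+S replicate 5 to 15.1 in HHD replicate 3, with 15.01 in WD+S replicate 3. High IL1B thus occurred in more than one group. IL10, which restrains inflammation, reached at most 6.30 CPM and had no read in HHD+S replicate 4. IL18, a ligand released by inflammasome activity, lay between 1.52 and 7.57 CPM in 19 libraries and at 14.4 in HHD replicate 2. The 2 IL-17 relatives IL17B and IL17D were measured in every library, at 7.79 to 19.0 and 17.4 to 34.2 CPM, while IL17A was not detected.

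Among the receptors, IL13RA1 was the steadiest tested member. Its coefficient of variation was 14.8%, and its means were 332 ± 56.7 CPM in HHD, 319 ± 53.9 in HHD+S and 316 ± 41.0 in WD+S. IL4R, its partner chain, had means of 70.1 ± 17.3, 73.9 ± 31.6 and 71.1 ± 20.5 CPM, with its highest value of 134 in HHD+S replicate 6. IL1R1 had means of 145 ± 36.5, 131 ± 14.9 and 123 ± 26.3 CPM. The groups overlapped for each of these 3 receptors. IL10RA had means of 71.8 ± 36.8, 60.5 ± 17.2 and 53.3 ± 20.04 CPM, with 141 in HHD replicate 2. IL17RC, the partner of IL17RA, had means of 48.2 ± 10.1, 58.4 ± 11.8 and 52.1 ± 5.58 CPM, and IL3RA, from the second table, had means of 84.6 ± 26.7, 90.3 ± 21.5 and 80.1 ± 21.1. Of the antagonists, IL18BP had means of 27.2 ± 9.56 CPM in HHD, 36.2 ± 10.1 in HHD+S and 30.5 ± 7.38 in WD+S. No member named in these sentences passed the test below in any comparison.

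The level of the IL-6 receptor depended on the row read. The row named IL6R had 35 reads over all libraries in the first table, whereas the second gave 6004, a level 167 times as high. In the first table a row with an identifier only, which a reference list of gene names calls IL6R, had 149 to 430 reads per library, or 41.0 to 95.8 CPM with a mean of 64.1. In the second table IL6R stood at 50.3 to 106 CPM, a mean of 75.0 CPM, with group means of 78.1 ± 14.8 in HHD, 78.3 ± 15.3 in HHD+S and 70.1 ± 12.4 in WD+S. IL6ST, the chain that IL-6 and IL-11 receptors share, had 1435 exon reads but none in the second table. The row named IL1RL1, the name of the IL-33 receptor, had 81 exon reads, none of them in 7 libraries, and the second table gave it 76. The reference list gives its identifier the name IL18R1, so which receptor it measures is uncertain. The same list names the IL18BP row RNF121, the IL8 row CXCL8 and the IL2RA_2 row IL2RA.

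Of the 63 names in both tables, 42 had 20 or more reads in each, and 30 of these had mean levels within 1.5 times of each other. A further 7 were over 3 times higher in the second table, and none was over 3 times higher in the first. Beside IL6R these were IL1RAP, the accessory chain of IL-1 receptors (11.3 times), IL18R1 (11.01), IL34 (6.11), IL27RA (4.44), IL20RA (3.90) and IL17RA (3.86). The 42 names left out IL6ST, with 1435 exon reads and none in the second table. They also left out rows spelled otherwise, such as that of IL6. Levels of all the genes named here depend on the table, whereas comparisons between groups were made within 1 table.

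**Figure D2:**
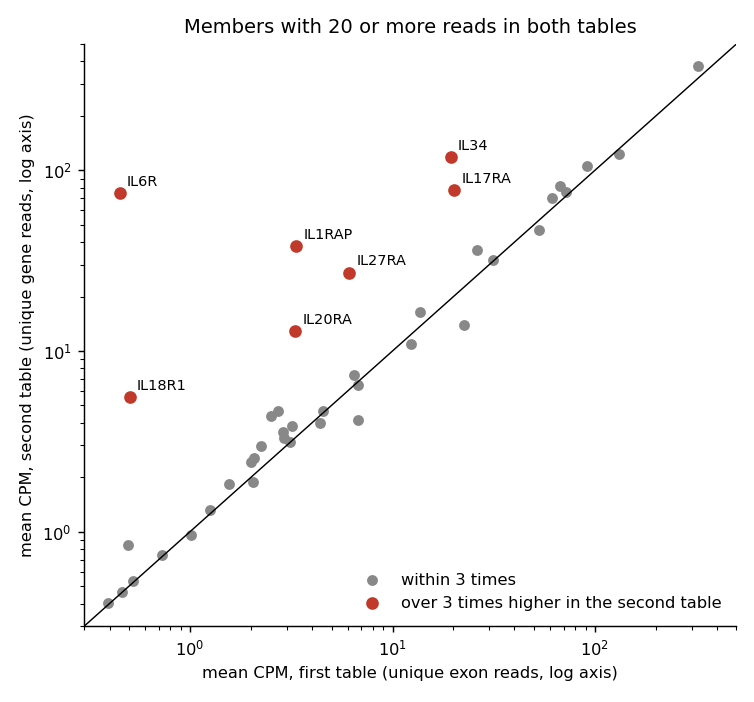
Mean CPM over 20 libraries of the 42 members with at least 20 reads in both tables, on log axes, with the line of equal levels. The 7 named members in red lie over 3 times above the line, and IL6R is the farthest at 167 times.

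Across the 3 comparisons, 39 members passed the filter on low counts in their own table, 30 in the first and 9 in the second. Genes were tested with edgeR's quasi-likelihood test, with Benjamini-Hochberg adjustment over all tested genes of a table (11366 in the first and 6685 in the second). No member and no other gene passed an adjusted p of 0.05 in any comparison, 0% of those tested. An unadjusted p under 0.05 was reached by 960, 988 and 1299 genes of the first table for HHD+S against HHD, WD+S against HHD+S and WD+S against HHD. At an adjusted p of 0.05 DESeq2 called 14, 13 and 80 genes and limma-voom 0, 4 and 0, none of them a member. The lowest adjusted p of a member by edgeR's quasi-likelihood test was 0.46 for HHD+S against HHD, 0.41 for WD+S against HHD+S and 0.34 for WD+S against HHD in the first table. No member had group ranges that did not overlap in any comparison. Over all genes of the first table the share without overlap was 0.114%, 0.0704% and 0.194% in that order, and 0.224%, 0.12% and 0.404% in the second. The members below are those with an unadjusted p under 0.05, and the share of all genes that met it is given beside each count. The libraries of each group enter 2 comparisons, so the comparisons are not independent.

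**Figure D3:**
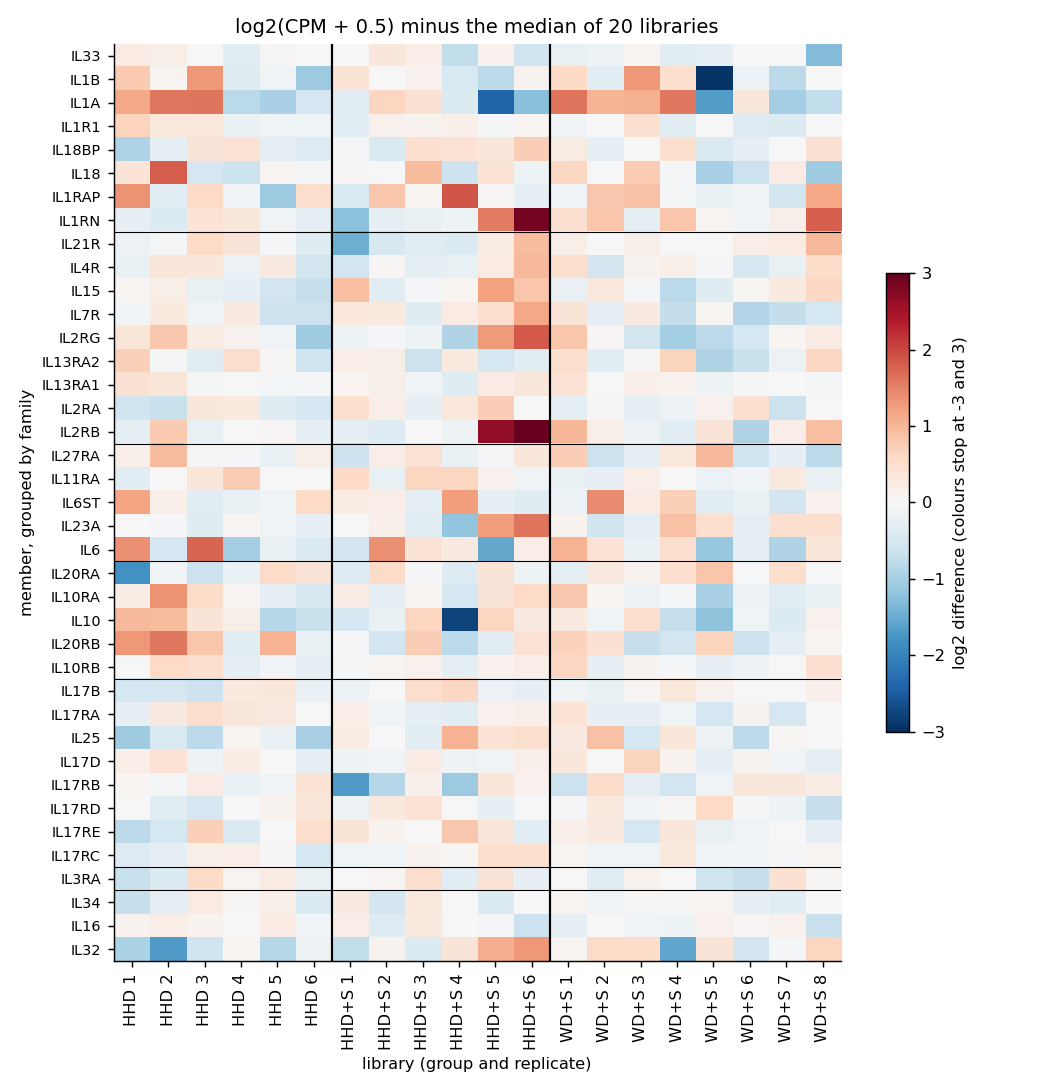
Level of the 39 tested members (rows, by family) in each of 20 libraries (columns, by group) as log2(CPM + 0.5) minus the median of the 20 libraries. No row separates the groups, while HHD+S replicates 5 and 6 are high for IL1RN, IL2RG, IL2RB, IL23A and IL32 and HHD replicate 2 is high for IL18, IL10RA and IL20RB.

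Atorvastatin on the Heart Healthy diet was examined by setting HHD+S against HHD. Of the 30 members tested on exon reads, 3 had an unadjusted p under 0.05, 2 of them higher with the drug and 1 lower, beside 8.45% of all tested genes (4.72% higher and 3.73% lower). IL25, a member of the IL-17 family that drives type 2 immunity, had the lowest p. It stood at 1.008 to 2.81 CPM (median 1.57) in HHD and 2.00 to 5.95 CPM (median 3.42) in HHD+S, and 4 of the 6 HHD+S libraries lay above every HHD library. Its mean was 3.57 ± 1.36 against 1.72 ± 0.708 CPM, a log2 fold change of 0.99 (SE 0.35, adjusted p = 0.46 by edgeR's quasi-likelihood test), on 4 to 28 reads per library. The second table gave a log2 fold change of 0.76 for IL25 from the same libraries, with 5 of 6 above every HHD library.

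IL15, which keeps natural killer cells and memory T cells alive, ranged from 3.59 to 6.95 CPM (median 5.07) in HHD and from 4.80 to 14.7 CPM (median 8.74) in HHD+S. The 3 HHD+S libraries above all HHD libraries were replicates 1, 5 and 6 at 11.7, 14.7 and 11.2 CPM, and the other 3 overlapped with HHD. The log2 fold change was 0.80 (SE 0.29, adjusted p = 0.46 by edgeR's quasi-likelihood test) and 0.45 without replicates 5 and 6. It was 0.28 within pool 1 and 1.77 within pool 2, whose only HHD+S libraries are replicates 5 and 6. Pool is a name used here for a number carried by the file names, and what that number stands for is not known here. IL20RB, a chain of the receptors for IL-19, IL-20 and IL-24, was lower in HHD+S. It had 1.202 to 5.92 CPM (median 3.64) in HHD and 0.744 to 3.12 CPM (median 1.40) in HHD+S, a log2 fold change of -0.99 (SE 0.43, adjusted p = 0.55 by edgeR's quasi-likelihood test). Its 3 ligands were IL19 and IL24 at 0 reads and IL20 at 5 reads.

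Of the 9 tested members whose names only the second table holds, 3 had an unadjusted p under 0.05, all higher in HHD+S. The share of all genes tested there was 8.72% (5.12% higher and 3.61% lower). First-table rows under other names for IL2RB, IL6 and IL16 were also tested on exon reads, and their fold changes are not given here. IL2RB, the signalling chain of the IL-2 and IL-15 receptors, had 5.81 to 12.8 CPM (median 6.75) in HHD and 5.41 to 61.8 CPM (median 6.82) in HHD+S. Replicates 5 and 6 of HHD+S stood at 48.7 and 61.8 CPM, and the other 4 lay between 5.41 and 7.13. The log2 fold change was 1.57 (SE 0.56, adjusted p = 0.39 by edgeR's quasi-likelihood test) and -0.29 without those 2 libraries. In the first table a row with an identifier only, which the reference list calls IL2RB, had 140 and 146 reads in the same 2 libraries and 10 to 52 in the other 18. IL1RN, the antagonist of the IL-1 receptor, had 1.51 to 3.07 CPM (median 1.88) in HHD and 0.644 to 19.1 CPM (median 1.85) in HHD+S. Replicates 5 and 6 again held the high values, 7.38 and 19.1 CPM. Its log2 fold change of 1.30 (SE 0.61, adjusted p = 0.55 by edgeR's quasi-likelihood test) was 0.33 without replicate 6 and -0.49 without both. IL32, a cytokine made by T and natural killer cells in humans, had 0.251 to 2.05 CPM (median 0.974) in HHD and 0.966 to 5.49 CPM (median 2.40) in HHD+S, with 4 of 6 above every HHD library. Its log2 fold change was 1.32 (SE 0.49, adjusted p = 0.40 by edgeR's quasi-likelihood test) and 0.63 without replicates 5 and 6. IL15RA, the chain that presents IL-15, passed the filter in the second table and had 0.818 to 4.02 CPM (median 1.62) in HHD and 1.78 to 13.9 CPM (median 3.01) in HHD+S. Its 2 highest libraries were again replicates 5 and 6 at 9.84 and 13.9 CPM. The log2 fold change was 1.60 (SE 0.57, adjusted p = 0.39 by edgeR's quasi-likelihood test) and 0.38 without them.

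**Figure D4:**
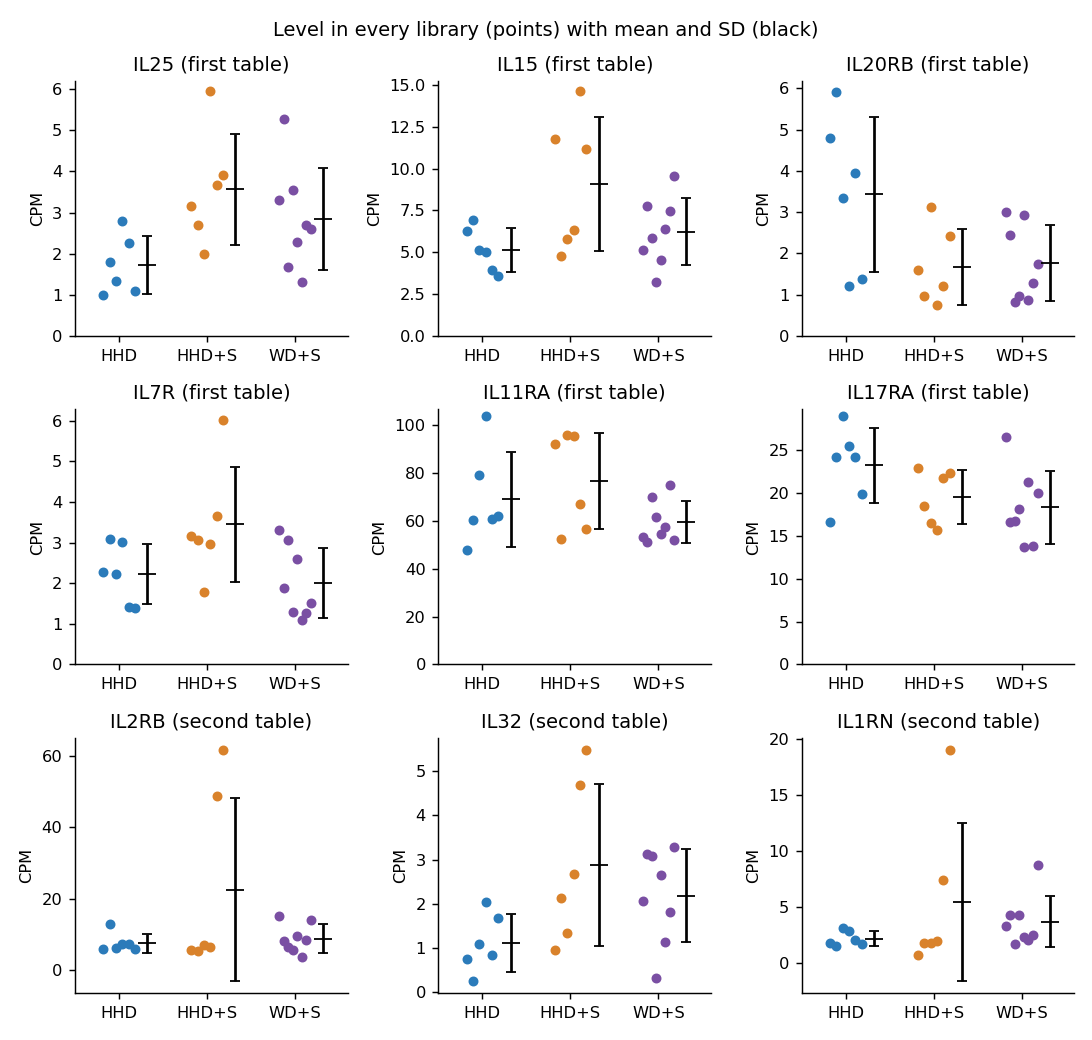
CPM of the 9 members with an unadjusted p under 0.05 in any comparison in the table each was taken from. A point marks each library, and black marks give mean and SD of each group. IL15RA, which met that threshold in the second table only, is not drawn. All groups overlap, and the spread of HHD+S for IL2RB and IL1RN comes from replicates 5 and 6, at 48.7 and 61.8 CPM for IL2RB.

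Diet under atorvastatin was examined by setting WD+S against HHD+S. Of 30 members tested on exon reads, 2 had an unadjusted p under 0.05, both lower in WD+S, beside 8.69% of all tested genes (5.9% higher and 2.79% lower). IL7R, the receptor of the lymphocyte survival factor IL-7, had 1.78 to 6.03 CPM (median 3.12) in HHD+S and 1.10 to 3.31 CPM (median 1.70) in WD+S, and the lowest 4 of the 8 WD+S values lay under the whole HHD+S range. The log2 fold change was -0.80 (SE 0.30, adjusted p = 0.41 by edgeR's quasi-likelihood test) and -0.47 without HHD+S replicates 5 and 6. In the second table it was -0.59, and within pool 1 of the first -0.21 against -1.61 within pool 2. IL11RA had 52.2 to 95.9 CPM (median 79.6) in HHD+S and 51.1 to 74.8 CPM (median 56.0) in WD+S. Its log2 fold change of -0.36 (SE 0.17, adjusted p = 0.55 by edgeR's quasi-likelihood test) was -0.49 without those 2 libraries, -0.52 within pool 1 and -0.048 within pool 2. Of the 9 tested members named only in the second table, IL2RB alone (1 member) had an unadjusted p under 0.05. The share of all genes tested there was 8.18% (5.73% higher and 2.45% lower). The log2 fold change of IL2RB was -1.35 (SE 0.51, adjusted p = 0.43 by edgeR's quasi-likelihood test) and became 0.51 without HHD+S replicates 5 and 6.

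Both changes together were examined by setting WD+S against HHD. On exon reads, 3 of 30 members had an unadjusted p under 0.05, 1 higher and 2 lower in WD+S, beside 11.4% of all tested genes (7.56% higher and 3.87% lower). IL20RB had 0.834 to 3.01 CPM (median 1.51) in WD+S, against the 1.202 to 5.92 CPM of HHD, a log2 fold change of -0.96 (SE 0.39, adjusted p = 0.34 by edgeR's quasi-likelihood test). IL17RA had 16.6 to 29.0 CPM (median 24.2) in HHD and 13.7 to 26.5 CPM (median 17.4) in WD+S, a log2 fold change of -0.34 (SE 0.15, adjusted p = 0.39 by edgeR's quasi-likelihood test). It was -0.20 in the second table, which gave the gene a level 3.86 times as high. IL25 had 1.32 to 5.28 CPM (median 2.66) in WD+S, a log2 fold change of 0.71 (SE 0.33, adjusted p = 0.41 by edgeR's quasi-likelihood test), or 0.97 within pool 1 and 0.41 within pool 2. The second table gave 0.43 for IL25, with an unadjusted p of 0.11 by edgeR's quasi-likelihood test. None of the 9 tested members named only in the second table had an unadjusted p under 0.05 by edgeR, and none passed after adjustment. The share of all genes tested there at an unadjusted p under 0.05 was 11.1% (7.42% higher and 3.72% lower).

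Taken over all 30 tested members of the first table, the median log2 fold change was -0.07 for HHD+S against HHD, -0.09 for WD+S against HHD+S and -0.06 for WD+S against HHD. All tested genes had medians of -0.01, -0.01 and -0.02. Fold changes were positive for 14, 9 and 12 of the 30 members, beside 48.1%, 48.2% and 46.2% of all genes. The 9 members of the second table had medians of 0.49, -0.36 and 0.13, and the first of these was -0.042 without HHD+S replicates 5 and 6. Fold changes were positive for 6, 1 and 5 of these 9, beside 46.7%, 48.3% and 46% of all genes of that table.

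Members of the IL-2 and IL-15 receptor system were high together in 2 HHD+S libraries. Replicates 5 and 6 of HHD+S had 29.1 and 42.8 CPM of IL2RG, against 5.95 to 11.3 in the other 4 of that group and 5.24 to 21.1 in all HHD and WD+S libraries. IL23A, a chain of IL-23, had 10.6 and 13.6 CPM there, against 1.53 to 7.93 in the other 18. IL21R, the receptor of IL-21, and IL7R were highest of HHD+S in replicate 6, at 5.43 and 6.03 CPM. The same 2 libraries stood apart in marker genes of T and natural killer cells (11 of 12 measured in the first table), whose summed level was 269 and 415 CPM. The other 4 HHD+S libraries lay between 29.6 and 43.8, HHD between 24.6 and 101 and WD+S between 22.8 and 127. Cytotoxic genes were among these, with GZMB at 11.5 and 21.4 CPM in the 2 libraries, against 8.04 in WD+S replicate 8 and at most 0.556 in the other 17. CD2 stood at 73.0 and 59.4 CPM there, against at most 26.7 in the other 18. Macrophage markers (7 of 10) summed to 1571 and 2620.0 CPM there, against 389 to 2238 in HHD and 219 to 1371 in WD+S, and interferon-induced genes (11 of 12) to 3480.3 and 4542 CPM, against 296 to 380.3 in HHD and 399 to 4050.4 in WD+S. Their part in the levels of these members was not tested. Both libraries belong to pool 2, which held 2 HHD+S, 2 HHD and 4 WD+S libraries.

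WD+S replicate 8 also had a high summed level of interferon-induced genes, 4050.4 CPM, and of T and natural killer markers, 127 CPM. There IL15RA stood at 7.44 CPM, IL1RN at 8.75 and IL27, a chain of the cytokine IL-27, at 3.72 in the second table, and IL15 at 9.56 in the first, each the highest of its group. IL2RB was 14.0 CPM and IL2RG 13.9, below the 15.1 and 21.1 of WD+S replicate 1. IL33 was lowest of all 20 libraries in that library, at 39.3 CPM, and fibroblast markers summed to 9690 CPM there, against 8169 and 11403 in HHD+S replicates 6 and 5 and 13136 to 30275 in the other 17. IL33 was 64.3 CPM in HHD+S replicate 6 and 107 in replicate 5. The part of the marker levels in these values was not tested.

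**Figure D5:**
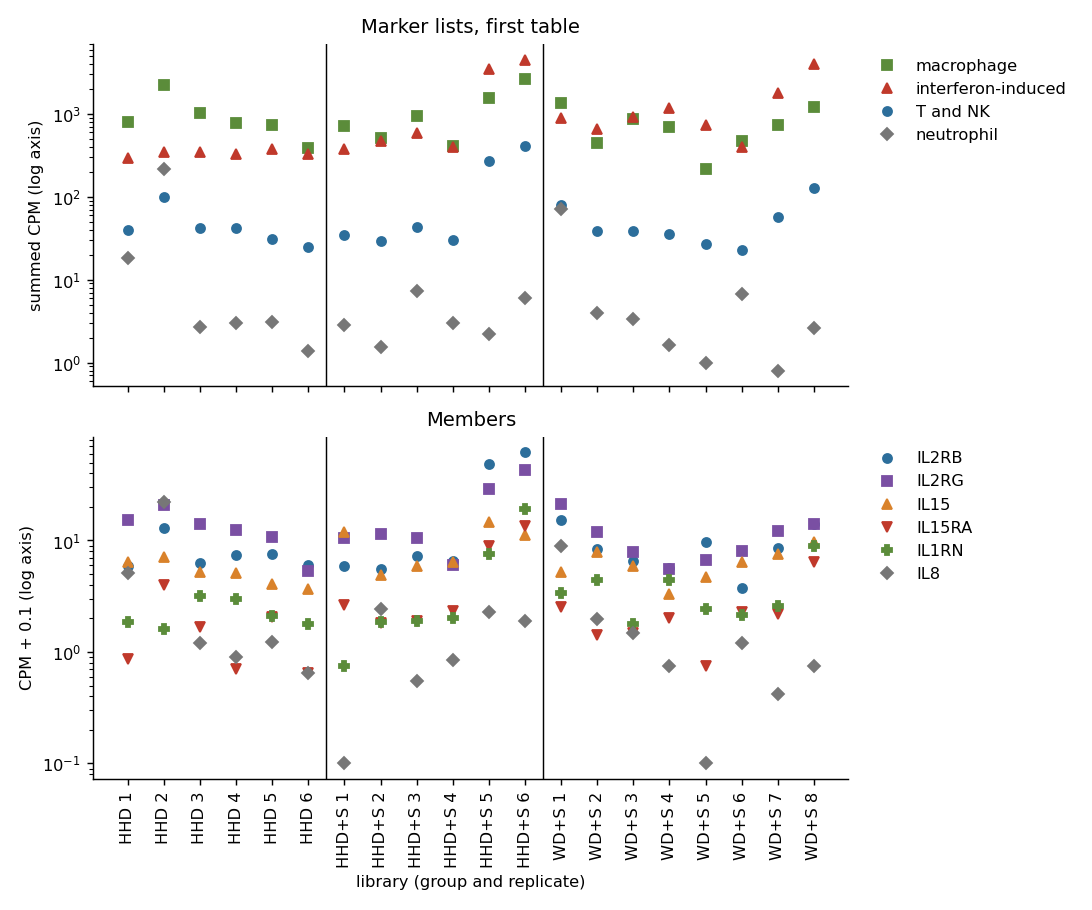
Summed CPM of 4 marker lists (upper) and CPM of 6 members with a small constant added (lower) in each of 20 libraries, both on log axes, with vertical lines between the groups. IL2RB, IL2RG and IL15RA (first table for the last 2) are highest in HHD+S replicates 5 and 6. T and natural killer markers reach 269 and 415 CPM there. IL8 is highest in HHD replicate 2, where neutrophil markers, mainly S100A8, S100A9 and S100A12, reach 216 CPM.

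Genes that work with the members were read from lists of partner ligands and receptors, of JAK and STAT signalling and of IL-1 and IL-17 signalling. None of the 12, 16 and 22 genes tested of these lists in the first table passed an adjusted p of 0.05 in any comparison by edgeR's quasi-likelihood test. CSF2RB is the common beta chain of the IL-3 and IL-5 receptors. At an unadjusted p under 0.05 it was the 1 of 12 partner genes lower in HHD+S against HHD, beside 3.73% of all genes. It was also the 1 of 12 lower in WD+S against the same HHD libraries, beside 3.87%. Its ranges overlapped, at 11.3 to 60.5 CPM in HHD, 7.44 to 37.7 in HHD+S and 8.15 to 28.0 in WD+S. By the same measure EBI3, a chain shared by IL-27 and IL-35, was the 1 of 12 lower in WD+S against HHD+S, beside 2.79%. In the IL-1 and IL-17 list, 2 of 22 genes were higher by that measure in HHD+S against HHD, beside 4.72% of all genes. They were NFKB2 and TRAF3IP2, the adaptor of the IL-17 receptor. TRAF3IP2 had 32.5 to 57.7 CPM in HHD and 48.9 to 74.8 in HHD+S, a log2 fold change of 0.42 (SE 0.15, adjusted p = 0.45 by edgeR's quasi-likelihood test). In the JAK and STAT list 1 of 16 genes, CISH, was lower by that measure in WD+S against HHD+S, beside 2.79% of all genes. CISH had 5.39 to 70.3 CPM in HHD+S, with an SD of 24.4 above its mean of 20.9, and 5.09 to 17.6 in WD+S. Its adjusted p was 0.54 by edgeR's quasi-likelihood test, and no fold change without the high values is given here. CSF2RB, EBI3, NFKB2 and CISH, and the members IL8, IL17B, IL17D, IL21R, IL23A, IL27 and those named for differing between the tables or having few reads, were named after their values were seen.

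As a check of the tissue label, adipocyte markers were measured in every library, the 8 genes summing to between 10418 and 23071 CPM in the second table. Markers of other tissues varied widely. Cardiomyocyte genes summed to between 29.5 and 4817 CPM in the first table. B and plasma cell markers stayed at or below 14.7 CPM in the first table, with PAX5 at 0 there.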

How the data were processed

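Per the labels' protocols, RNA from ground epicardial fat was column-purified with DNase, kept at a quality indicator above 7 and made into TruSeq RNA v2 libraries, which do not mark strand, so antisense overlap cannot be told apart. The submitters' processing notes name bcl2fastq 2.17.1.14 and Sscrofa10.2, with aligner and counter not given in the sources used here. For each library 2 tables were deposited by the authors. Per the file headers, the first holds counts of unique exon reads per gene and the second counts of unique gene reads with the authors' RPKM, whose length and total are not stated. CPM was computed here from each table's own total. Reads from near-identical genes may be split or lost in unique counts.

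Samples were grouped by the diet and drug labels. The 2 tables were tested separately with edgeR 4.0.16 in R 4.3.3 (quasi-likelihood F test, TMM scaling, filterByExpr with a minimum count of 10 and minimum total of 15), fitting all 20 libraries and adjusting by Benjamini-Hochberg over all tested genes. Log2 fold changes are differences between groups. The script was tested on simulated data. Alternatives used DESeq2 1.42.0, limma 3.58.1, other filters, pools and libraries left out. Values were tabulated in Python 3.11.15 with pandas 2.3.3 and drawn with matplotlib 3.10.9. Limits for a count of 0 use 3 counts and cover counting error only.

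The text names members with an unadjusted p under 0.05 in any comparison, the 12 with the highest median RPKM, a core list of cytokines and receptors, and any without group overlap. Pathway genes were named at an unadjusted p under 0.01, and 1 result among the partner genes is not reported here. The members and all lists were chosen with earlier results of these data known. The planned description of promoter motifs was not made, since no promoter sequences were used here.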

Additional observations from a re-analysis of the deposited data

Results flagged for a closer look

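In 150 groups of libraries (a member in a diet group), 17 had 1 library far from the others by Dixon's criterion, in which chance alone flags about 1 in 20 groups. Values are CPM, with the nearest other library of the group beside each. WD+S replicate 8 accounted for 5. It held IL15RA at 6.30 (nearest 2.41), IL1RN at 8.75 (4.30), IL21R at 5.65 (3.18) and IL27 at 3.72 (1.32), and was low for IL33 at 39.3 (79.1). The summed level of interferon-induced genes there was 4050.4 CPM and that of T and natural killer markers 127 CPM, and their part in these values was not tested.

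HHD replicate 2 stood apart for IL8 at 21.9 (5.04), IL18 at 14.4 (5.04), IL27RA at 11.3 (6.35) and IL2RB at 12.8 (7.39). It also had the highest summed neutrophil markers of all libraries, 216 CPM (mainly S100A8, S100A9 and S100A12), and macrophage markers at 2238 CPM. WD+S replicate 1 stood apart for IL8 at 8.74 (1.89), IL10RA at 97.9 (57.7) and IL4I1, an amino acid oxidase, at 3.92 (2.22), with neutrophil markers at 71.1 CPM. The part of these markers was not tested.

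In HHD+S replicate 6, IL1RN reached 19.1 (7.38). HHD+S replicate 4 held IL6ST at 35.3 (17.1) and IL1RAP at 10.04 (4.61). IL17RC was 63.9 (54.8) in WD+S replicate 4 and IL1R1 was 177.9 (130.4) in WD+S replicate 3.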

How the results depend on the processing

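No member passed an adjusted p of 0.05 under any alternative run. Over all genes, DESeq2 called 14, 13 and 80 for HHD+S against HHD, WD+S against HHD+S and WD+S against HHD, and limma-voom called 4 for the second. A fit of the 2 groups alone called 1 gene in each of the last 2 comparisons, pool 1 called 1 and 14, and leaving out HHD+S replicates 5 and 6 called 1 for WD+S against HHD. Leaving out 1 library gave 0 to 0, 0 to 1 (1 without HHD+S replicate 2) and 0 to 22 (22 without WD+S replicate 1, 14 without HHD replicate 6).

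The number of members tested and the share of all genes at an unadjusted p under 0.05 can differ between settings. Neither is given for the alternatives, so the counts below cannot be read as results about the members. Members of the first table at an unadjusted p under 0.05 (3, 2 and 3) became 9, 5 and 5 with no filter. With DESeq2 they became 5 and 5 in the first 2 comparisons. The count for HHD+S against HHD was 7 with a filter of 1 CPM in 6 libraries, which keeps more genes than the filter used. Within pool 2 the counts were 9, 9 and 1. For WD+S against HHD the count was 0 within pool 1 and 0 without HHD replicates 3 and 5, whose Y-linked reads are intermediate. Members tested in both tables gave 1 for WD+S against HHD+S and 1 for WD+S against HHD in the second table. Leaving out 1 library gave 2 to 5 (5 without HHD replicate 3 or 4), 1 to 4 (1 without WD+S replicate 2, 5 or 6, 4 without HHD+S replicate 2) and 0 to 3 (0 without HHD replicate 2, 1 without WD+S replicate 2 or 7 or HHD replicate 1 or 3). Their median log2 fold change for HHD+S against HHD was 0.079 in a fit of the 2 groups and 0.16 within pool 2, and for WD+S against HHD+S 0.067 within pool 1. Leaving out 1 library gave -0.09 to 0.06, -0.15 to -0.03 and -0.11 to -0.01.

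Counts for the members of the second table (9 in the main fit) carry the same limit. The count for HHD+S against HHD (3) was 1 in a fit of the 2 groups and 1 with pool as a term. It was 0 within pool 1 and 0 without HHD+S replicates 5 and 6. For WD+S against HHD+S (1) it was 2 with no filter, 0 with limma-voom and 4 within pool 2. For WD+S against HHD (0) it was 1 with no filter and 2 without HHD+S replicates 5 and 6. Leaving out 1 library gave 2 to 5 (5 without HHD+S replicate 3), 0 to 2 (0 without HHD+S replicate 5 or 6, 2 without WD+S replicate 6) and 0 to 1 (1 without WD+S replicate 4 or 6, HHD replicate 4 or 6, or HHD+S replicate 1 or 6). Their median for HHD+S against HHD (0.49) was 0.095 with no filter, 0.092 with DESeq2, 0.20 with limma-voom, 0.094 in a fit of the 2 groups, -0.042 without HHD+S replicates 5 and 6, -0.23 in pool 1 and 0.94 in pool 2. For WD+S against HHD+S (-0.36) it was 0.064 within pool 1 and 0.11 without those 2 libraries, and for WD+S against HHD (0.13) it was 0.41 within pool 2. Leaving out 1 library gave 0.29 to 0.64, -0.46 to -0.13 and 0.0025 to 0.22.

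In pool 1 alone, and with HHD+S replicates 5 and 6 left out, the log2 fold change reversed for IL1RN (-0.60 and -0.49) and IL2RB (-0.39 and -0.29) in HHD+S against HHD, and for IL2RB (0.52 and 0.51) in WD+S against HHD+S. Both settings hold the same HHD+S libraries, since replicates 5 and 6 are the only ones of that group in pool 2. They are therefore not separate checks, here or above. At 1 CPM in all 20 libraries, 29 members counted as expressed. The causes were not tested. Depth limits members with few reads per library. No paired analysis was made, because the labels used here give no pairing of libraries between groups.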

Other observations

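IL8, a chemoattractant of neutrophils, was highest in HHD replicate 2 at 21.9 CPM, WD+S replicate 1 at 8.74 and HHD replicate 1 at 5.04, and reached at most 2.30 in the other 17 libraries. Neutrophil markers (4 of 6 in the first table) summed to 216, 71.1 and 18.4 CPM in the same 3 libraries and to at most 7.34 in the others. That sum was mainly S100A8, S100A9 and S100A12, with MMP8 at most 0.401 CPM. In the second table CSF3R and CXCR2 of the same list were highest in HHD replicate 3, at 10.1 and 3.07 CPM. CSF3R was 5.03, 3.84 and 1.77 CPM in the 3 libraries, and CXCR2 was 2.76, 1.48 and 0.

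IL6ST was highest in WD+S replicate 2 at 39.6 CPM, HHD+S replicate 4 at 35.3 and HHD replicate 1 at 34.0, one library of each diet group. IL18R1 of the second table was highest in the same 3 libraries, at 11.5, 11.5 and 9.84 CPM, and reached at most 6.18 in the other 17. IL1RAP of the second table stood at 76.7 CPM in HHD replicate 1 and 89.2 in HHD+S replicate 4, with 76.0 and 86.4 in WD+S replicates 3 and 8 and at most 42.7 in the rest. These libraries were chosen after their values were seen.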
